A study of Oryza sativa with 6 samples.

Results

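Circadian clock genes were followed in rice leaves by RNA-seq. They were chosen by their Swiss-Prot annotation, which had to name REVEILLE, LHY, a pseudo-response regulator (PRR or APRR), GIGANTEA, Adagio, EARLY FLOWERING 3 or LUX. Of the 2995 genes in the deposited table, 6 met this rule: 4 annotated as REVEILLE, 1 as LHY and 1 as PRR73. The other terms matched 0 genes. The 2 lines compared were PIF4v3m, a CRISPR/Cas9 line in which a single nucleotide at the v3 SNP of the *OsPIL13* promoter was deleted, and its background WYG7, the cultivar Wuyungeng 7. PIF4v3m is the name in the labels, and the description of the edit is that of the line PIL13v3m in the paper, on the reading that both names mean 1 line. There were 3 leaf libraries per line, both lines grown under combined fluctuating light and drought stress (FL-DS). The labels give plants of 3 weeks, while the paper's methods describe FL-DS that began at a later age.

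The plant circadian clock is a set of transcriptional regulators that repress or activate each other in turn through the day. LHY and its REVEILLE relatives are MYB-like proteins whose transcripts peak around dawn. In Arabidopsis, LHY represses genes of the evening, the pseudo-response regulators follow during the day and repress LHY, and a complex of ELF3, ELF4 and LUX acts in the evening. Rice has a single LHY/CCA1 gene, and the clock sets daily rhythms of photosynthesis, starch use and flowering signals in the leaf. Phytochrome-interacting factors, the family of OsPIL13, are light-signalling bHLH proteins, and transcripts of some members in Arabidopsis are under clock control. The paper reports a daily rhythm of *OsPIL13* expression too, in leaves of WYG7 seedlings under its control condition, lower in the daytime than at night.

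Values are FPKM, fragments scaled by transcript length and by the mapped reads of the library, as the authors deposited them. Levels of different genes can thus be set beside each other. The table holds a gene only where the authors' own comparison of these lines gave a false discovery rate under 0.01 and a log2 fold change beyond 1 in either direction. The clock genes were therefore already chosen for a difference between PIF4v3m and WYG7, and the contrast is given here as a description, with no test. The paper lists clean reads for every library, but the table gives no reads per gene, so the number of reads behind single low values is not known. No source used here gives the time of day at which leaves were collected, so that a difference in collection time and a difference in genotype cannot be told apart for these rhythmic genes. The paper calls the 3 libraries of a line independent replicates, without saying for RNA-seq whether each came from separate plants, and the spread given is that between libraries.

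The 5 morning-phased genes all had higher levels in PIF4v3m leaves and the day-phased PRR73 had a lower level. Among the morning-phased genes the size of the difference fell into 3 classes. REVEILLE 1 and REVEILLE 2 were near 0 FPKM in WYG7 and at 29.4 FPKM or more in every PIF4v3m library, LHY was 9.84 times higher, and 2 genes annotated as REVEILLE 6 were between 2.31 and 2.52 times higher. The ranges of the 2 lines did not overlap for any of the 6 genes. The same held for 99.4% of all listed genes, 45.5% with PIF4v3m above WYG7 and 53.9% with PIF4v3m below, so nothing can be read from the separation. Likewise limma, at an adjusted p under 0.05 over the 2995 genes, called all 6 clock genes against 99.9% of all listed genes, with 45.8% called higher and 54.1% called lower.

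**Figure D1:**
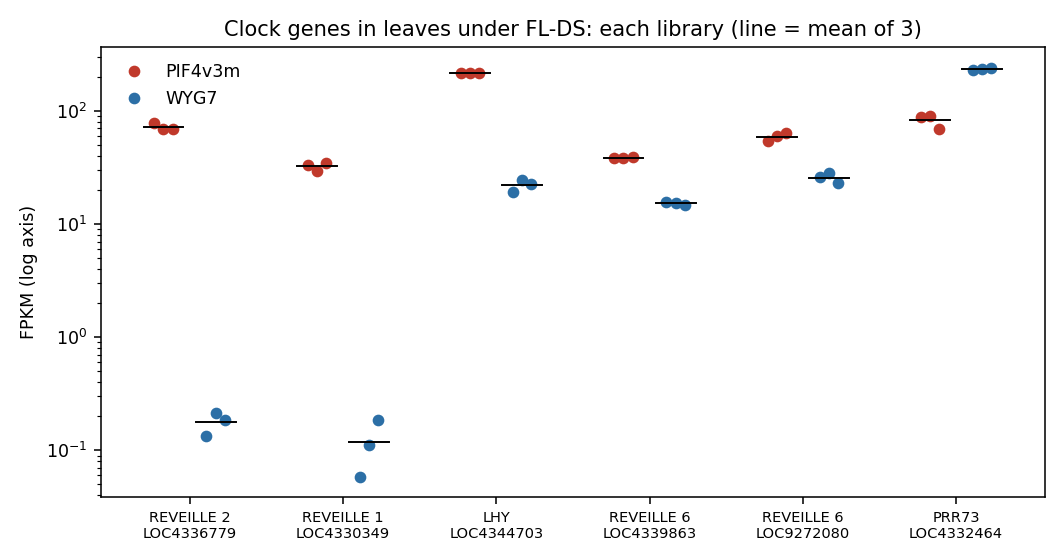
FPKM of the 6 clock genes (log axis) in each of 3 PIF4v3m libraries (red) and 3 WYG7 libraries (blue), with the mean as a black line. REVEILLE 1 and REVEILLE 2 lie at 0.214 FPKM or less in WYG7 and at 29.4 FPKM or more in PIF4v3m, and PRR73 is the single gene with the WYG7 points on top.

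REVEILLE 2 (LOC4336779), whose Arabidopsis namesake is a clock-controlled MYB-like protein also known as CIRCADIAN 1, had 77.9, 70.0 and 69.3 FPKM in PIF4v3m, against 0.133, 0.214 and 0.185 FPKM in WYG7. All 3 WYG7 libraries were near the lower end of the measured range, and the PIF4v3m libraries were close to each other. The ratio of mean FPKM was 408, and the log2 fold change on the log2(FPKM + 1) scale was 5.96 (standard error 0.10), the largest increase of all listed genes. With an offset of 0.1 in place of 1 FPKM, this log2 fold change was 8.04, since the offset shrinks the change of a gene this low in WYG7.

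REVEILLE 1 (LOC4330349), which in Arabidopsis links the clock to auxin production, had 33.5, 29.4 and 35.0 FPKM in PIF4v3m, against 0.0584, 0.112 and 0.184 FPKM in WYG7. The WYG7 values differed more among themselves, relative to their mean, than those of any other clock gene (coefficient of variation, CV, 53.4%), at a level where single values are imprecise. The ratio of mean FPKM was 276 and the log2 fold change 4.91 (standard error 0.12), the increase of rank 3. Ratios of mean FPKM of at least 100 in this direction were seen in 6 listed genes, counting only genes with a WYG7 mean above 0. With an offset of 0.1 the log2 fold change of REVEILLE 1 was 7.27.

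LHY (LOC4344703), the core clock repressor that the RefSeq gene table also lists under the names CCA1 and OsLHY, had 217.9, 216.5 and 218.0 FPKM in PIF4v3m, against 19.1, 24.5 and 22.8 FPKM in WYG7. In PIF4v3m it was the most abundant of the 6 clock genes, with rank 37 among all listed genes by mean FPKM, while in WYG7 its rank was 434. The ratio of mean FPKM was 9.84 and the log2 fold change 3.25 (standard error 0.10), the increase of rank 25.

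The 2 genes annotated as REVEILLE 6, in Arabidopsis a member of the REVEILLE group that activates evening genes, were the clock genes least apart between the lines. LOC4339863 had 38.8, 38.0 and 39.3 FPKM in PIF4v3m, against 15.7, 15.4 and 14.9 FPKM in WYG7, with a log2 fold change of 1.28 (standard error 0.08). LOC9272080 had 54.5, 60.1 and 63.3 FPKM in PIF4v3m, against 25.9, 28.2 and 23.1 FPKM in WYG7, with a log2 fold change of 1.18 (standard error 0.10). Both lay close to 1.08, the median of all listed genes that were higher in PIF4v3m. The level of LOC4339863 relative to LOC9272080 was 0.622 to 0.711 in PIF4v3m and 0.547 to 0.643 in WYG7, so the proportion between the pair overlapped between the lines.

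PRR73 (LOC4332464), a pseudo-response regulator that KEGG groups with Arabidopsis PRR7, a daytime repressor of LHY, went the other way. It had 88.7, 90.0 and 69.9 FPKM in PIF4v3m, against 231.3, 236.9 and 240.7 FPKM in WYG7. PIF4v3m replicate 3 was the lowest library, and the WYG7 libraries differed little. The mean was 82.8 ± 11.3 FPKM in PIF4v3m and 236.3 ± 4.70 FPKM in WYG7 (SD, n = 3 each), 2.85 times lower in PIF4v3m, with a log2 fold change of -1.51 (standard error 0.11). In WYG7 PRR73 was the most abundant clock gene, with rank 40 among the listed genes, and in PIF4v3m its rank was 145. The median log2 fold change of the 5 morning-phased genes was 3.25. It was -0.56 over all listed genes and 1.08 over the listed genes that were higher in PIF4v3m.

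The order of the clock genes by level therefore differed between the lines. In PIF4v3m the mean levels ran, from high to low, LHY, PRR73, REVEILLE 2, REVEILLE 6 (LOC9272080), REVEILLE 6 (LOC4339863) and REVEILLE 1. In that order PRR73 and REVEILLE 2 overlapped, as the lowest PRR73 library (69.9 FPKM) lay within the 69.3 to 77.9 FPKM of REVEILLE 2. Within each PIF4v3m library PRR73 was still above REVEILLE 2. The ranges of all other neighbours in this order did not overlap. In WYG7 the order was PRR73, REVEILLE 6 (LOC9272080), LHY, REVEILLE 6 (LOC4339863), REVEILLE 2 and REVEILLE 1. There LOC9272080 and LHY overlapped (23.1 to 28.2 FPKM and 19.1 to 24.5 FPKM), and so did REVEILLE 2 and REVEILLE 1.

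Within single libraries, the balance of LHY and PRR73, a morning and a day component of the same loop, was turned round. LHY was 2.46, 2.41 and 3.12 times as abundant as PRR73 in the PIF4v3m libraries. In the WYG7 libraries PRR73 was instead 12.1, 9.69 and 10.6 times as abundant as LHY. A ratio taken within a library does not depend on how that library was scaled. It still restates the differences of LHY and PRR73 given above, for which both genes were listed, and is no separate result. On the log2 scale the ratio of LHY to PRR73 was 1.40 ± 0.21 in PIF4v3m and -3.43 ± 0.16 in WYG7 (SD, n = 3 each).

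The 5 morning-phased genes summed to 413.9 to 425.0 FPKM in PIF4v3m and to 60.9 to 68.3 FPKM in WYG7. Their proportions, which follow from the same levels, differed as well. LHY made up 51.3% to 52.3% of this sum in PIF4v3m and 31.4% to 37.2% in WYG7. The REVEILLE 6 pair made up 22.1% to 24.1% in PIF4v3m and 62.2% to 68.3% in WYG7, where it was the larger part. REVEILLE 2 contributed 16.3% to 18.4% in PIF4v3m and 0.219% to 0.314% in WYG7, and REVEILLE 1 7.09% to 8.24% in PIF4v3m and 0.0959% to 0.301% in WYG7. REVEILLE 2 was 1.98 to 2.38 times as abundant as REVEILLE 1 in PIF4v3m. In WYG7 this ratio was 1.00 to 2.28.

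**Figure D2:**
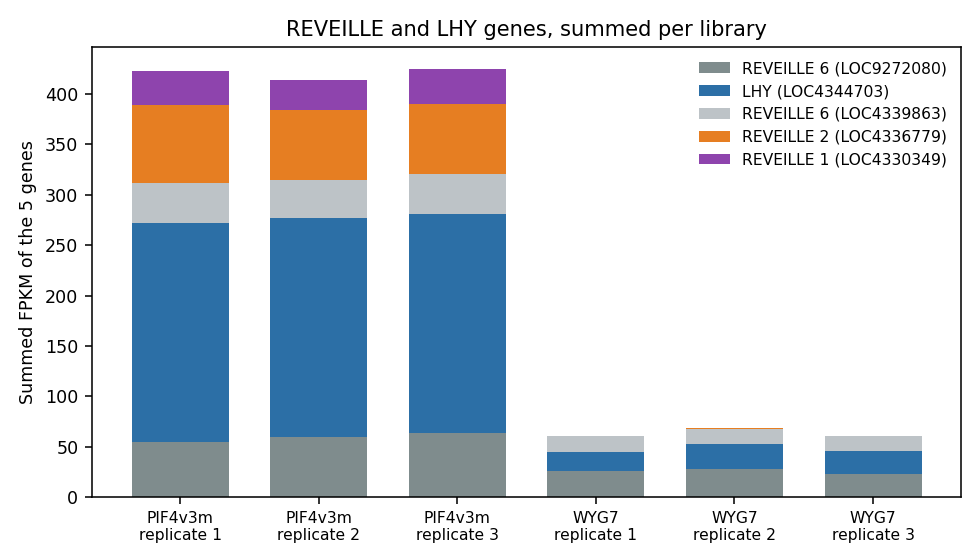
Summed FPKM of the 5 morning-phased genes in each library, stacked by gene, with PIF4v3m libraries on the left and WYG7 libraries on the right. The sums are 413.9 to 425.0 FPKM in PIF4v3m and 60.9 to 68.3 FPKM in WYG7, where the REVEILLE 1 and REVEILLE 2 segments are barely visible.

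The spread between libraries of one line does not use the difference between the lines. LHY in PIF4v3m had a CV of 0.390%, the smallest of the 2161 listed genes with a mean of at least 1 FPKM in that line, whose median CV was 12.1%. In WYG7 the CV of LHY was 12.4%, beside a median of 14.1% over 2363 genes. PRR73 showed the reverse, with a CV of 13.6% in PIF4v3m and 1.99% in WYG7. REVEILLE 6 (LOC4339863) was tight in both lines, at 1.69% in PIF4v3m and 2.83% in WYG7. With 3 libraries a CV is itself imprecise, and these values were picked after they were seen. Within WYG7, replicate 1 had the lowest LHY, the lowest REVEILLE 1 and the lowest REVEILLE 2.

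The annotation columns that the rule did not use place all 6 genes in the KEGG pathway of the plant circadian rhythm. The 5 morning-phased genes share 1 KEGG ortholog entry, that of the MYB-related factor LHY, and all carry a Myb-like DNA-binding domain in Pfam, while PRR73 carries a response regulator receiver domain. The REVEILLE and LHY names come from Arabidopsis proteins, and only the PRR73 entry is from rice itself. A gene just outside the rule was LOC4327931, which Swiss-Prot names ELF3-like protein 2 and KEGG groups with EARLY FLOWERING 3, a scaffold of the evening complex. It had 12.6, 10.1 and 9.98 FPKM in PIF4v3m, against 4.86, 4.35 and 4.62 FPKM in WYG7, thus higher in PIF4v3m and opposite in direction to PRR73. Other clock genes looked up by name in the RefSeq table were GIGANTEA (LOC4325329), PRR1 (LOC4330000), PRR37 (LOC4344399), PRR95 (LOC4347674) and OsELF3-1 (LOC4340087). They had no row among the listed genes, so no value can be given for them. Whether they fell short of the authors' thresholds or were not measured is not known. Further clock genes, such as LUX and the Adagio genes, were not looked up in this way. The single day-phased gene thus cannot stand for the day- and evening-phased part of the clock.

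Proteins that work with the clock were taken from a list of annotation terms. Of its 6 listed genes, 3 were higher and 3 were lower in PIF4v3m, and limma called all of them, as it did 99.9% of the table. Lower was LNK2 (LOC4324539), in Arabidopsis a co-activator that REVEILLE proteins recruit, at 31.7 ± 1.93 FPKM in PIF4v3m and 77.2 ± 5.60 FPKM in WYG7 (SD, n = 3 each). Higher was ELF4-LIKE 4 (LOC4350949), a relative of the evening complex subunit ELF4, at 36.5 ± 2.98 FPKM in PIF4v3m and 16.9 ± 0.93 FPKM in WYG7. SPA1-RELATED 4 (LOC4324727), a partner of the light-signalling ubiquitin ligase COP1, was at 62.6 ± 3.898 FPKM in PIF4v3m and 26.6 ± 1.26 FPKM in WYG7. The 2 genes annotated as the histone demethylase JMJ30 differed in direction. LOC4347435 had 3.67 ± 0.84 FPKM in PIF4v3m and 0.90 ± 0.16 FPKM in WYG7, whereas LOC9269734 had 11.3 ± 1.27 FPKM in PIF4v3m and 24.1 ± 4.77 FPKM in WYG7. The remaining gene, the DET1- and DDB1-associated protein (LOC4331465), was lower in PIF4v3m (log2 fold change -0.97, standard error 0.16). A single light receptor gene was listed, a DASH-type cryptochrome (LOC4341749), at 20.2 ± 1.12 FPKM in PIF4v3m and 9.10 ± 0.34 FPKM in WYG7.

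Photoperiodic flowering genes are read-outs of the clock, and of 11 on the list 7 were higher and 4 were lower in PIF4v3m, with a median log2 fold change of 1.62, beside 45.8% called higher, 54.1% called lower and a median of -0.56 over all listed genes. The Dof-type repressors of flowering genes, known from Arabidopsis as cycling Dof factors, were both higher. Cyclic dof factor 2 (LOC9272566) had 24.6, 20.2 and 21.9 FPKM in PIF4v3m, against 0.601, 0.648 and 0.387 FPKM in WYG7. Cyclic dof factor 1 (LOC4348585) had a mean of 58.2 ± 4.56 FPKM in PIF4v3m and 12.3 ± 2.02 FPKM in WYG7 (SD, n = 3 each). Among the CONSTANS-LIKE zinc finger genes, 4 were higher and 1 (LOC4345073) was lower, and the most different was LOC4340812, with 45.8 ± 2.33 FPKM in PIF4v3m and 1.29 ± 0.52 FPKM in WYG7. The florigen genes *HEADING DATE 3A* and *RICE FLOWERING LOCUS T 1* encode mobile signals that trigger flowering, and the genes LOC4340185 and LOC4340184 with these annotations were lower. HEADING DATE 3A had 7.15, 12.1 and 8.95 FPKM in PIF4v3m, against 110.7, 86.2 and 98.9 FPKM in WYG7. RICE FLOWERING LOCUS T 1 had 5.68 ± 2.03 FPKM in PIF4v3m and 53.1 ± 4.96 FPKM in WYG7. A second gene annotated as HEADING DATE 3A (LOC107276171) was lower too, at 0.250 ± 0.21 FPKM in PIF4v3m and 6.10 ± 1.20 FPKM in WYG7. A second gene annotated as RICE FLOWERING LOCUS T 1 (LOC4324585) was instead higher, at 17.9 ± 1.16 FPKM in PIF4v3m and 7.45 ± 1.303 FPKM in WYG7, so genes with florigen annotations did not share 1 direction. HD1 (LOC4340746), the rice CONSTANS, fell outside the list's terms and had 6.14 ± 0.86 FPKM in PIF4v3m and 0.378 ± 0.17 FPKM in WYG7. Genes annotated as CO3, which KEGG groups with CONSTANS, also fell outside and differed in direction. LOC4346474 had 38.8 ± 4.01 FPKM in PIF4v3m and 6.31 ± 1.21 FPKM in WYG7, whereas LOC4328490 had 30.0 ± 4.01 FPKM in PIF4v3m and 71.0 ± 3.08 FPKM in WYG7.

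The table assigns 29 genes to the KEGG circadian rhythm pathway, a set that was chosen after its values had been seen. Beside the 6 clock genes, 16 of the other 23 were higher and 7 were lower in PIF4v3m, against 45.8% and 54.1% called higher and lower in the whole table. The median log2 fold change of these 23 was 1.08, the same at this rounding as that of all listed genes that were higher. The 2 genes listed under the KEGG entry of the SPA1 family were close in ratio of mean FPKM, at 2.35 for SPA1-RELATED 4 and 2.35 for SUPPRESSOR OF PHYA-105 1 (LOC4339663). An F-box and kelch-repeat gene (LOC4344994) that KEGG groups with the clock photoreceptor ZEITLUPE, although Swiss-Prot does not name it Adagio, had 16.9 ± 1.21 FPKM in PIF4v3m and 8.44 ± 0.32 FPKM in WYG7. Of the 7 genes that KEGG groups with FLOWERING LOCUS T, 2 were higher and 5 were lower. Of the 3 grouped with phytochrome-interacting factors, 2 were higher and 1 was lower, namely LOC4334324, which Swiss-Prot names APG and KEGG groups with phytochrome-interacting factor 4. It had 0.373, 0.530 and 0.260 FPKM in PIF4v3m, against 3.67, 4.18 and 4.28 FPKM in WYG7, and was 10.4 times lower in PIF4v3m by mean FPKM. This gene may be the edited *OsPIL13*, since it lies in the RefSeq table on the chromosome that the paper's locus number for *OsPIL13* names, and the label PIF4v3m carries the same gene name. The paper's own measurement of *OsPIL13* expression in PIL13v3m, by qRT-PCR relative to a reference gene, showed a smaller fall than that of this gene. That measure is unlike FPKM and the collection times are not known, so the sizes are not directly comparable. No source used here pairs the locus number with this gene ID, so the identity is not settled.

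**Figure D3:**
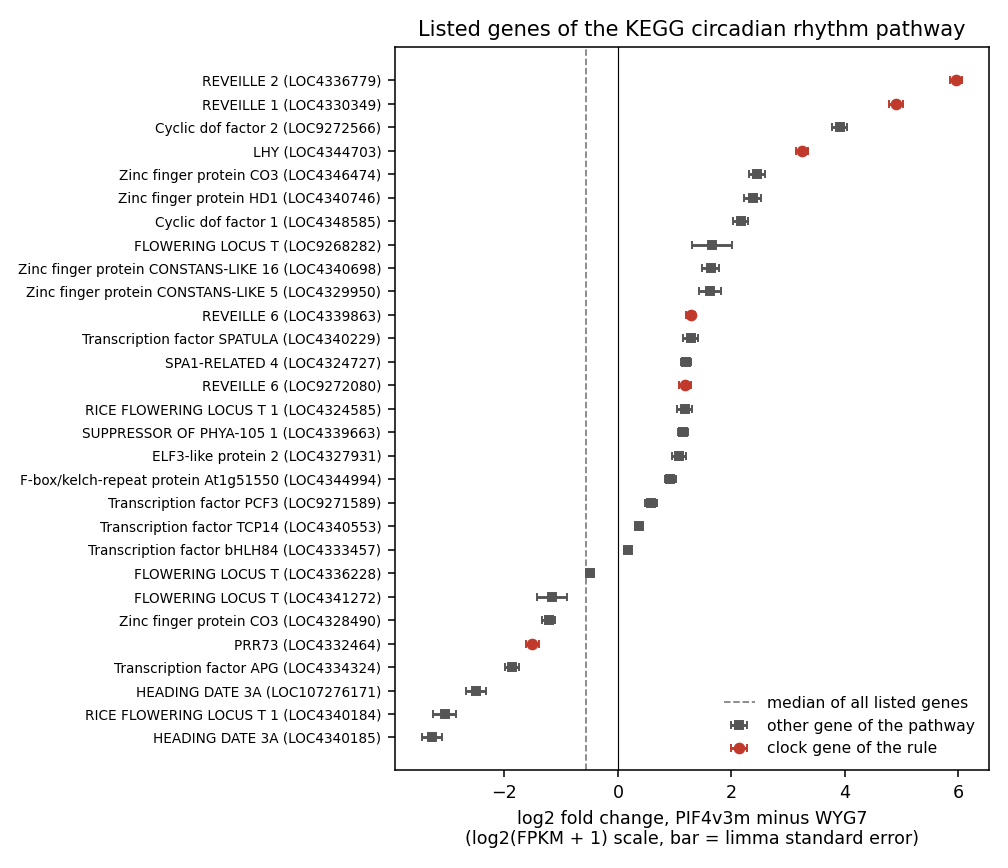
Log2 fold change (PIF4v3m minus WYG7, on the log2(FPKM + 1) scale) of the 29 listed genes of the KEGG circadian rhythm pathway, with limma standard errors as bars. The 6 clock genes are red circles and the others grey squares. The dashed line marks the median of all listed genes at -0.56, and REVEILLE 2 at 5.96 and HEADING DATE 3A (LOC4340185) at -3.28 are the ends of the range.

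Genes most like a clock gene over the 6 libraries were found by the distance between profiles of log2(FPKM + 1), each centred on its own mean. This is a description, as nearly every listed gene follows the split between the lines. Nearest to LHY were CONSTANS-LIKE 9 (LOC4330574), with a distance of 0.25 on the log2 scale, an uncharacterized gene (LOC4334965) with 0.31 and organic cation/carnitine transporter 7 (LOC4333528) with 0.31. CONSTANS-LIKE 9 had 36.2 ± 2.19 FPKM in PIF4v3m and 2.86 ± 0.36 FPKM in WYG7 (SD, n = 3 each). Nearest to PRR73 was a bZIP gene annotated as light-inducible protein CPRF2 (LOC107276775), with a distance of 0.061, and it had 24.4 ± 3.45 FPKM in PIF4v3m and 71.9 ± 0.50 FPKM in WYG7. It shared with PRR73 a larger spread in PIF4v3m than in WYG7. The next, LOC107277925 and the H/ACA ribonucleoprotein subunit gene LOC4344029, were at 0.19 each.

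Gene order in the RefSeq assembly ASM3414082v1, which may differ from the build behind the files and is used only for neighbours, set REVEILLE 1 and REVEILLE 2 apart from the other clock genes. Of the 10 protein-coding genes nearest to REVEILLE 2, 5 on each side, 5 were listed and all 5 were higher in PIF4v3m. The count was also 5 of 10, all higher, around REVEILLE 1. Of the 2723 listed genes that could be placed, 12 (0.441%) had at least 5 neighbours listed in their own direction, and the median number of listed neighbours was 1. The cut of 5 was the count of REVEILLE 1 and REVEILLE 2 themselves. The 12 genes include both of them and some of their listed neighbours, which share the same runs. This share is thus no independent background. LHY had 2 listed neighbours, both lower in PIF4v3m, and PRR73 and the REVEILLE 6 genes had 0. This neighbourhood was looked at after the values of the clock genes were known, and the listed neighbours were chosen by the authors for differing.

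The neighbourhoods of REVEILLE 1 and REVEILLE 2 held genes with the same annotations. Each had a listed gene for a protein with PH, RCC1 and FYVE domains on one side and a listed protein phosphatase 2C gene on the other. The PH, RCC1 and FYVE gene beside REVEILLE 2 (LOC4336778) had 2.26 ± 0.15 FPKM in PIF4v3m and 0.734 ± 0.030 FPKM in WYG7, and the one beside REVEILLE 1 (LOC4330348) had 2.21 ± 0.27 FPKM in PIF4v3m and 0.705 ± 0.024 FPKM in WYG7 (SD, n = 3 each). The protein phosphatase 2C gene near REVEILLE 2 (LOC9272700) had 4.74 ± 0.64 FPKM in PIF4v3m and 0.234 ± 0.079 FPKM in WYG7, 20.3 times higher. The one near REVEILLE 1 (LOC4330350) had 2.84 ± 0.50 FPKM in PIF4v3m and 1.02 ± 0.35 FPKM in WYG7, 2.78 times higher. None of the listed neighbours reached the ratios of the clock genes between them, and the highest level among them was that of an uncharacterized gene near REVEILLE 1 (LOC4330344), at 92.8 ± 12.6 FPKM in PIF4v3m and 9.13 ± 0.66 FPKM in WYG7. The span of REVEILLE 2 overlaps that of its nearest neighbour LOC9269592 in this assembly, and how reads of overlapping genes or of related copies were assigned is not given in the sources used here. That neighbour had 3.85 ± 0.22 FPKM in PIF4v3m and 0.925 ± 0.17 FPKM in WYG7. REVEILLE 1 and REVEILLE 6 (LOC9272080) lie on the same chromosome with 21 protein-coding genes between them.

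**Figure D4:**
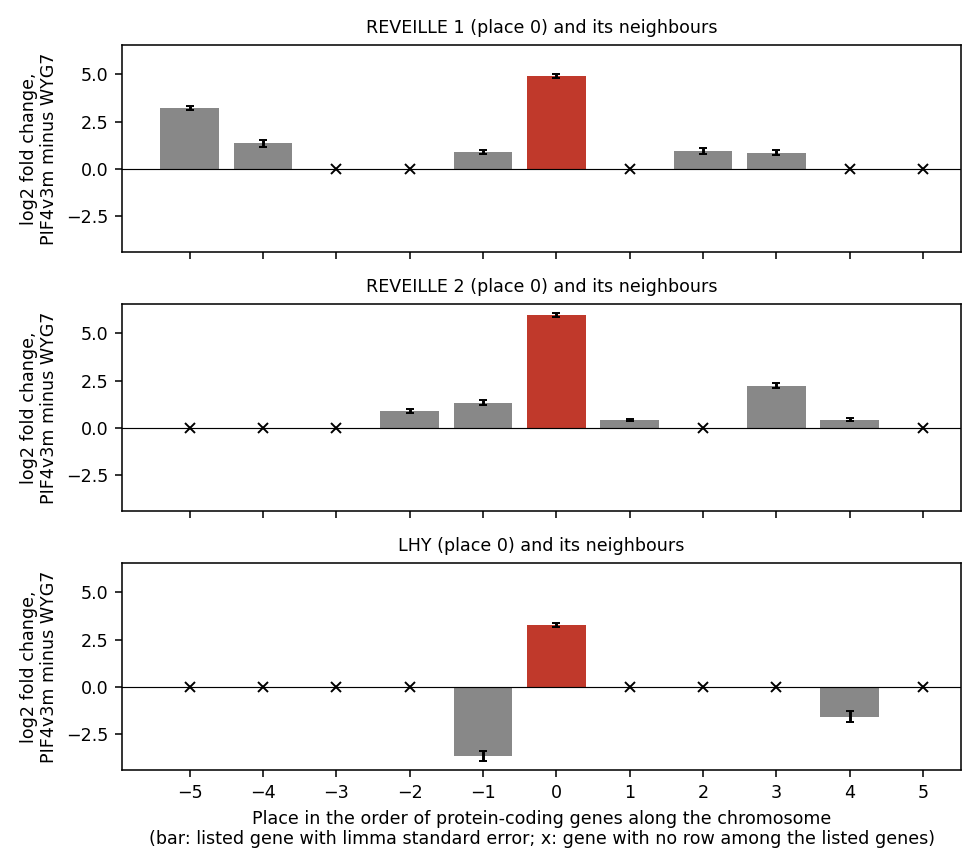
Log2 fold change (PIF4v3m minus WYG7, log2(FPKM + 1) scale) of REVEILLE 1, REVEILLE 2 and LHY (red) and of the listed genes among the 5 protein-coding genes on either side (grey), in chromosome order, with limma standard errors. Crosses mark genes with no row among the listed genes. The 5 listed neighbours of REVEILLE 1 and the 5 of REVEILLE 2 are above 0, and the 2 of LHY are below 0.

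Marker genes of other cell types also differed between the lines, within the limit that only genes called by the authors are listed. Over all listed genes 45.8% were called higher and 54.1% lower. Of 10 listed leaf mesophyll markers (Rubisco small subunit, chlorophyll a-b binding and photosystem proteins), 5 were higher and 5 lower, and they summed to 6863 to 9150 FPKM in PIF4v3m and 13854 to 14638 FPKM in WYG7. Much of the difference in this sum lay in a single gene, chlorophyll a-b binding protein 1 (LOC4346803). It had 791 ± 130 FPKM in PIF4v3m and 5380 ± 443 FPKM in WYG7. All 7 listed markers of dividing cells (histones and cyclins) were higher, at 51.8 to 54.6 FPKM in PIF4v3m and 19.0 to 23.8 FPKM in WYG7 in sum. The 2 pollen-annotated genes were lower (sums of 0.524 to 0.891 FPKM in PIF4v3m and 3.69 to 8.50 FPKM in WYG7) and the 1 endosperm-annotated gene was higher (2.28 to 2.84 FPKM in PIF4v3m and 0.238 to 1.24 FPKM in WYG7). No marker list summed to 0 in a library. The part of these differences in the levels of the clock genes was not tested. In bulk leaf RNA, fewer cells of a type, less RNA per cell and a change of single marker genes cannot be told apart.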

How the data were processed

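RNA of 3 PIF4v3m and 3 WYG7 leaf libraries was sequenced. The authors deposited FPKM per gene and library, together with the false discovery rate (an adjusted p-value) and the log2 fold change of their own comparison, whose values were read only to test how the table had been filtered. All 2995 rows had a deposited adjusted p-value under 0.01 and an absolute deposited log2 fold change over 1. In the paper, the authors name STAR, Cufflinks and DESeq2. The submitters' processing notes list other tools (HISAT2 2.0, StringTie 1.3.0, Bowtie 0.12.2) and the mouse build mm8, so the tools behind the FPKM are not settled. Among 26 genes with every FPKM above 0 and under 0.5, values were whole multiples of the lowest (within 0.02) in 0, so reads per gene were not recovered.

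Groups were taken from the library names in the labels. All genes were fitted with limma 3.58.1 in R 4.3.3 on log2(FPKM + 1) with a mean-variance trend, for a mean FPKM above 0.01, which all 2995 genes passed, and Benjamini-Hochberg adjustment. Fold changes on this scale understate low genes. The fit was tested on simulated data. Text named all 6 genes of the rule, genes of the clock-associated and flowering lists, and the 3 genes nearest in profile to the most abundant morning-phased and day-phased gene. The genes and lists were chosen with earlier results of these data known. Neighbours came from RefSeq (2761 IDs matched by gene ID). A planned comparison of protein and promoter sequences was not run. Alternatives were other offsets, filters and scalings, limma without a trend, a replicate block, single libraries left out and a wider membership. Python 3.11.15, pandas 2.3.3 and matplotlib 3.10.9 were used.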

Additional observations from a re-analysis of the deposited data

How the results depend on the processing

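The 5 morning-phased genes stayed higher and PRR73 stayed lower in PIF4v3m under every alternative run, which the authors' choice of listed genes had nearly fixed beforehand. Of the values recomputed, 156 stayed within the spread between libraries, or within 1.5 times for counts, and 16 moved further. Many of the 156 could not move, because the filters, the trend and the block leave the log2 fold change of a clock gene unchanged. The count is thus no measure of stability. With an offset of 0.1, the log2 fold changes were 8.04 for REVEILLE 2, 7.27 for REVEILLE 1 and 1.33 for REVEILLE 6 (LOC4339863), and with 0.01 they were 8.62, 8.11 and 1.34, because a smaller offset shrinks low genes less. After rescaling to TPM over the listed genes they were 8.31 for REVEILLE 2, 7.57 for REVEILLE 1, 3.45 for LHY (also the median of the morning-phased genes), 1.48 for LOC4339863 and 1.35 for LOC9272080. The offset of 1 was added after this rescaling to larger values, so these figures mix the scaling with a relatively smaller offset. After quantile normalization the log2 fold changes were 5.87 for REVEILLE 2, 1.14 for LOC4339863 and 0.92 for LOC9272080, and the cause was not tested. These scalings moved the median of all genes by -0.393 and 0.229. With members taken from any annotation column, ELF3-like protein 2 joined PRR73, and the median of the day- and evening-phased genes was -0.22 in place of -1.51. Without single libraries, REVEILLE 2 ranged from 5.91 to 5.99, REVEILLE 1 from 4.86 to 4.98, LHY and the morning-phased median from 3.15 to 3.32, LOC4339863 from 1.261 to 1.299, LOC9272080 from 1.10 to 1.24 and PRR73 from -1.57 to -1.39. Genes called higher then numbered 1361 to 1371 and lower 1610 to 1618.

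Each line holds every replicate number, so a fit with that number as a block could not move the log2 fold changes. They were 5.96 for REVEILLE 2 and -1.51 for PRR73, and this fit called 1372 genes higher and 1618 lower. Between libraries with 1 number, deviations from the line means had correlations of -0.068, 0.003 and -0.097, so the numbers were not taken to pair the libraries. The reads behind single values are not known, which limits the REVEILLE 1 and REVEILLE 2 levels in WYG7.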
